A study of Capra hircus with 20 samples.

Results

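The acetylcholine receptor of skeletal muscle and the proteins that assemble it at the neuromuscular junction were examined in goat fat-depot cell cultures through 10 genes of the 20587 gene symbols in the mRNA table. The genes were chosen by symbol. They were the receptor subunits CHRNA1, CHRNB1, CHRND, CHRNG and CHRNE, the nerve-derived organiser AGRN, its receptor LRP4, the kinase MUSK, its adaptor DOK7 and the scaffold RAPSN. Together they had 29 of the 43766 mRNA transcripts, and the values of all transcripts of a symbol were summed. The 20 libraries came from cells of 5 male Jianzhou Daer goats aged 7 days. Intramuscular preadipocytes (IMPA) were isolated with collagenase from the longissimus dorsi and subcutaneous preadipocytes (SPA) from subcutaneous fat, without sorting, and were grown to passage 3 in serum-containing DMEM/F12. Intramuscular adipocytes (IMA) and subcutaneous adipocytes (SA) were the same kinds of culture 3 days after induction with oleic acid, whereas IMPA and SPA were taken at day 0. Each group had 5 libraries, and the labels did not tie a replicate number to a goat, so the spread given below is the spread between libraries.

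The muscle nicotinic receptor is a cation channel built of alpha, beta and delta subunits together with gamma in fetal or denervated muscle or epsilon in mature innervated muscle. Agrin released by the motor nerve binds LRP4 on the muscle fibre, LRP4 activates the kinase MuSK, and the adaptor Dok-7 is needed for that activation. Rapsyn, encoded by RAPSN, links the receptors into clusters beneath the nerve terminal. Myogenic factors acting on E-boxes switch the subunit genes on when myoblasts fuse into myotubes, and in adult fibres the genes become restricted to the nuclei under the synapse. Adipocytes and their stromal precursors are not known for this apparatus, although LRP4 and agrin are made in many tissues.

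The unit was FPKM, fragments normalised to transcript length and library size, and the number of fragments behind a value was unknown. The summed FPKM of a library over the mRNA and lncRNA tables ranged from 527426 to 596669. Of 19 skeletal muscle markers, 15 were in the table, and their summed FPKM was 3017 to 3454 in IMPA, 12667 to 13442 in IMA, 13.1 to 30.6 in SPA and 12.3 to 14.8 in SA. Markers of stromal progenitors summed to 4315 to 6768 FPKM in IMPA, 5700 to 6454 FPKM in IMA and 9634 to 10915 FPKM in the subcutaneous libraries. The 9 adipocyte markers in the table summed to between 7.43 and 13.0 FPKM per library, lower in every IMA than in every IMPA library and overlapping between SA and SPA. ADIPOQ, PLIN1 and PLIN4 did not exceed 0.596 FPKM in any library and PPARG did not exceed 1.26 FPKM, while the group means of CEBPA lay between 3.91 and 9.23 FPKM and CIDEC averaged 4.65 FPKM in SPA and 4.35 FPKM in SA. Single adipocyte markers differed in direction between SPA and SA. LPL was 0.481 to 0.576 FPKM in SPA and 1.03 to 1.61 FPKM in SA, without overlap, and its groups overlapped between IMPA and IMA. Mean PPARG was 0.624 FPKM in SPA and 1.03 FPKM in SA, with overlap, whereas mean CEBPA was 5.05 and 3.91 FPKM. The 4 endothelial and the 4 immune markers summed to at most 1.19 and 2.82 FPKM in any library. The names IMA and SA are therefore used here as the labels give them. In bulk libraries, fewer cells of a type and less RNA per cell cannot be told apart. According to the study's alignment summary, the share of reads that mapped was larger throughout IMPA than throughout IMA, and throughout SPA than throughout SA. It was also larger throughout IMPA than throughout SPA, and throughout IMA than throughout SA. This share therefore cannot be told apart from stage or from depot in the comparisons below.

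In the intramuscular cultures 9 of the 10 genes were expressed at 1 FPKM or more, and the order of their levels differed between the stages. RAPSN had the highest level in IMPA at 76.0 ± 5.41 FPKM (mean ± SD, n = 5), followed by CHRNG at 48.0 ± 5.10 FPKM. CHRNG came first in IMA at 89.1 ± 10.3 FPKM, and RAPSN followed at 61.2 ± 4.03 FPKM. CHRNA1 came next at both stages, with 17.6 ± 0.942 FPKM in IMPA and 31.3 ± 4.51 FPKM in IMA. Below these, the neighbours LRP4, DOK7, CHRND and CHRNB1 each overlapped the next in IMPA, and DOK7, CHRNB1, LRP4 and MUSK did so in IMA. AGRN was near 2 FPKM and CHRNE was the lowest of the 10 at both stages. In the subcutaneous cultures LRP4 stood alone at the top, with 23.0 ± 3.19 FPKM in SPA and 19.7 ± 5.32 FPKM in SA. AGRN, CHRNB1, RAPSN and CHRNE were next, between 0.0512 and 2.19 FPKM per library. CHRNA1, CHRND, CHRNG, MUSK and DOK7 did not exceed 0.139 FPKM in any subcutaneous library.

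**Figure D1:**
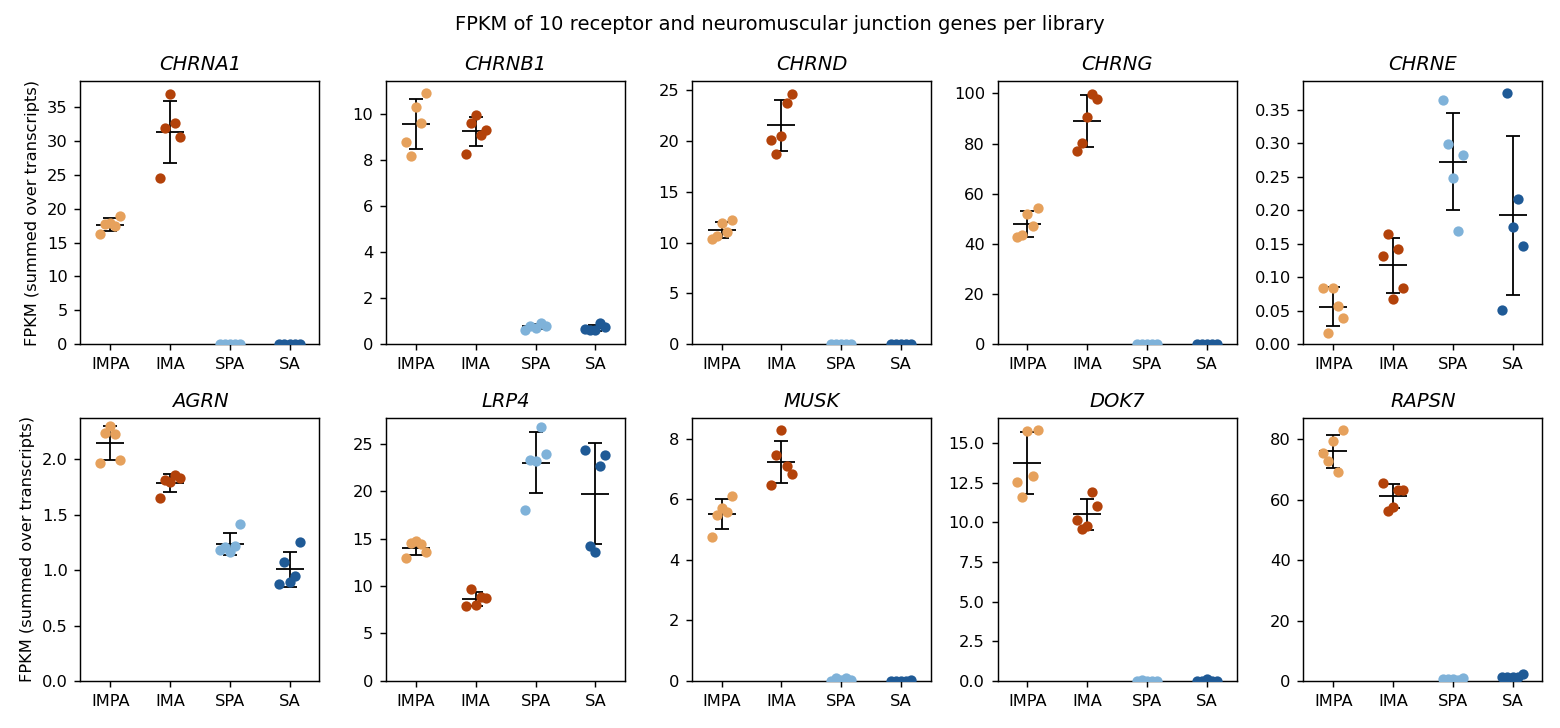
FPKM of each gene in the 20 libraries, with 1 panel per gene and its own linear axis starting at 0. Points are libraries, long bars group means and whiskers 1 SD (n = 5 per group). CHRNA1, CHRND, CHRNG, MUSK and DOK7 lie at or near 0 in SPA and SA, LRP4 is higher in the subcutaneous than in the intramuscular groups, and CHRNE stays under 0.4 FPKM in all 4 groups.

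Induction of the intramuscular cells was accompanied by higher mRNA of 3 of the 5 receptor subunits. CHRNG, the fetal subunit, read 42.9, 43.6, 52.0, 47.2 and 54.5 FPKM in the IMPA libraries and 77.0, 80.2, 90.7, 99.97 and 97.7 FPKM in the IMA libraries. Every IMA library lay above every IMPA library, a 1.86-fold higher mean. The difference on the log2(FPKM + 1) scale was 0.88 (SE 0.0860, adjusted p = 5.15e-06, limma).

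CHRND, the delta subunit, was 10.4, 10.6, 11.9, 11.1 and 12.2 FPKM in IMPA and 20.1, 18.7, 20.5, 23.7 and 24.7 FPKM in IMA. CHRNA1, which carries the acetylcholine-binding alpha subunit, was 16.2, 17.8, 17.8, 17.5 and 18.9 FPKM in IMPA and 24.5, 31.9, 37.0, 32.7 and 30.5 FPKM in IMA. Neither gene's groups overlapped. CHRND rose 1.92-fold (log2 difference 0.88, SE 0.0744, adjusted p = 1.65e-06, limma) and CHRNA1 rose 1.77-fold (log2 difference 0.78, SE 0.0864, adjusted p = 1.30e-05, limma).

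CHRNB1, the beta subunit, did not follow the others. Its 5 IMPA libraries held 8.78, 8.17, 10.3, 9.61 and 10.9 FPKM and its 5 IMA libraries 8.24, 9.58, 9.95, 9.05 and 9.29 FPKM, so that the IMA range lay within the IMPA range. The log2 difference was -0.04, with a 95% confidence interval from -0.20 to 0.12 (adjusted p = 0.649, limma). Its sign turned without a call under quantile normalization. With single libraries left out the difference ranged from -0.0893 to 0.00430, also without a call.

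CHRNE, the adult subunit, averaged 0.160 FPKM over the 20 libraries, was below the 1 FPKM filter and was not tested with the other genes. It read 0.0840, 0.0165, 0.0844, 0.0571 and 0.0395 FPKM in IMPA and 0.131, 0.165, 0.0669, 0.142 and 0.0837 FPKM in IMA, with overlap. In an exact two-sided permutation test its means of 0.0563 and 0.118 FPKM gave p = 0.0476, or 0.0952 after adjustment over the 4 comparisons of this gene. The fetal gene accounted for nearly all of the pair: CHRNG made up 99.9% ± 0.0642 (SD, n = 5) of the summed FPKM of CHRNG and CHRNE in IMPA and 99.9% ± 0.0557 (SD, n = 5) in IMA. The difference of -0.0174 percentage points did not pass an exact permutation test (adjusted p = 0.683).

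The make-up of the subunit mRNAs was compared as percentages of their summed FPKM, which is a value per length and so can be set side by side between genes. The sum was 86.5 ± 7.71 FPKM in IMPA and 151 ± 15.4 FPKM in IMA (n = 5 each), a 1.75-fold rise. CHRNG took 55.4% ± 0.975 of it in IMPA and 58.8% ± 1.57 in IMA (n = 5 each, exact permutation test over 5 subunits, adjusted p = 0.0198). The CHRNB1 share fell from 11.0% ± 0.463 to 6.13% ± 0.534 (n = 5 each, exact permutation test, adjusted p = 0.0198), and its groups did not overlap. The FPKM of CHRNB1 itself was not called as different. The fall of its share thus restates the rise of CHRNG, CHRNA1 and CHRND in the sum and is not counted as a result of its own. The share of CHRNG was formed from the same sum beside the unchanged CHRNB1, and its rise is not counted either. The shares of CHRNA1 (20.5% and 20.7%), CHRND (13.0% and 14.3%) and CHRNE (0.0655% and 0.0795%) did not pass the same exact test, with adjusted p values of 0.881, 0.0529 and 0.635. The ratio of CHRND to CHRNG was 0.235 ± 0.00846 in IMPA and 0.242 ± 0.0143 in IMA (n = 5 each), and the groups overlapped.

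Upstream of the kinase, both the agrin gene and its receptor gene fell in the intramuscular cells. LRP4 was 13.0, 14.5, 14.7, 14.4 and 13.6 FPKM in IMPA and 7.94, 9.66, 8.03, 8.83 and 8.70 FPKM in IMA, with a wide gap between the groups. Its mean in IMA was 0.615 of that in IMPA (log2 difference -0.64, SE 0.0561, adjusted p = 1.99e-06, limma). AGRN, the ligand, was 1.97, 2.23, 2.30, 2.23 and 2.00 FPKM in IMPA and 1.65, 1.81, 1.80, 1.85 and 1.83 FPKM in IMA. The groups did not overlap, but the step was small (log2 difference -0.17, SE 0.0491, adjusted p = 0.00942, limma). When each gene was represented by its most abundant transcript, the AGRN call was lost (log2 difference -0.45, adjusted p = 0.200, limma).

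MUSK and the 2 proteins that act with it inside the fibre did not move together. MUSK, the receptor tyrosine kinase, was 4.75, 5.49, 5.73, 5.59 and 6.10 FPKM in IMPA and 6.46, 7.45, 8.28, 7.09 and 6.83 FPKM in IMA, without overlap (log2 difference 0.33, SE 0.0697, adjusted p = 0.00148, limma). RAPSN, the receptor-clustering scaffold, was 75.3, 72.8, 79.5, 69.3 and 83.0 FPKM in IMPA and 65.4, 56.2, 57.6, 63.3 and 63.3 FPKM in IMA, also without overlap but in the opposite direction. It fell by 0.31 on the log2(FPKM + 1) scale (SE 0.0569, adjusted p = 0.000606, limma). DOK7, the MuSK adaptor, was 12.5, 11.6, 15.8, 12.9 and 15.8 FPKM in IMPA and 10.2, 9.60, 9.78, 11.9 and 11.0 FPKM in IMA. One IMA library reached into the IMPA range, and the gene passed the test as lower (log2 difference -0.35, SE 0.0882, adjusted p = 0.00462, limma).

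In all, 8 of the 9 tested genes were called between IMA and IMPA, 4 higher (CHRNA1, CHRND, CHRNG, MUSK) and 4 lower (AGRN, LRP4, DOK7, RAPSN), where 60.1% of all 11432 genes tested were called, 19.9% as higher and 40.2% as lower. The groups did not overlap for 7 of the genes, 4 higher and 3 lower, against 43.5% of all genes tested, 14.3% higher and 29.2% lower. The median log2 difference was -0.04 over the 9 genes and -0.09 over all genes tested.

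**Figure D2:**
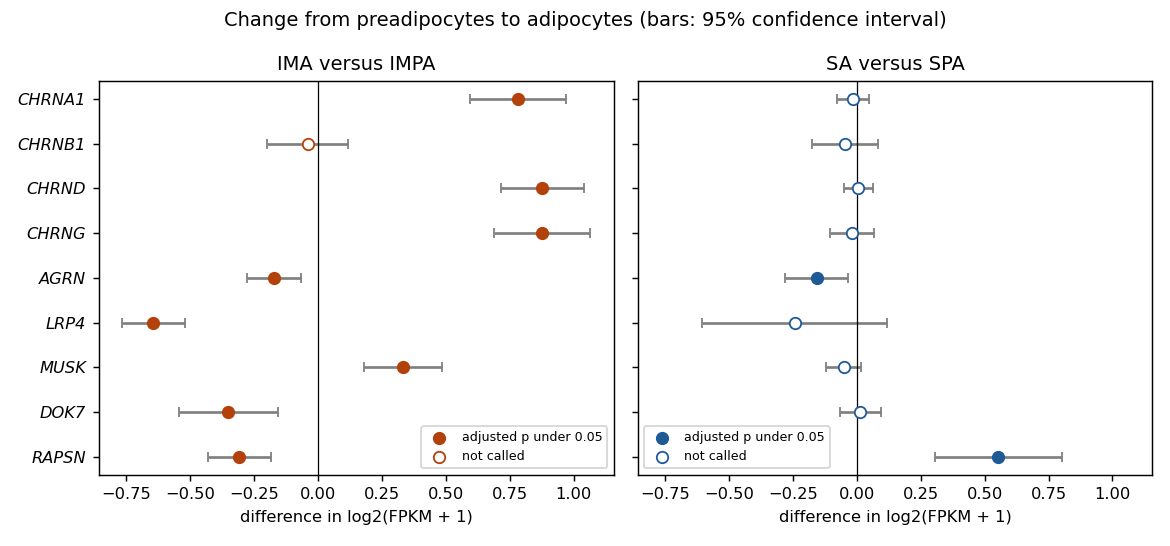
Difference of each gene between adipocytes and preadipocytes on the log2(FPKM + 1) scale, for intramuscular cells on the left and subcutaneous cells on the right. Points are the limma estimates, bars their 95% confidence intervals, and filled points passed an adjusted p of 0.05. In intramuscular cells CHRNA1, CHRND, CHRNG and MUSK lie to the right of 0 and AGRN, LRP4, DOK7 and RAPSN to the left, and in subcutaneous cells only RAPSN and AGRN are filled.

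The relative amounts of the junction mRNAs changed accordingly, in ratios that were chosen after the values had been seen. The ratio of RAPSN to the subunit sum was 0.961, 0.909, 0.864, 0.811 and 0.860 in IMPA and 0.503, 0.400, 0.364, 0.383 and 0.390 in IMA. There was thus nearly as much RAPSN as subunit mRNA per length before induction and less than that afterwards, with means of 0.881 ± 0.0565 and 0.408 ± 0.0549 (n = 5 each). The ratio of DOK7 to MUSK went from 2.48 ± 0.262 to 1.47 ± 0.221, and that of LRP4 to MUSK from 2.55 ± 0.195 to 1.20 ± 0.133 (n = 5 each). None of these 3 ratios overlapped between the groups. Since each pairs genes already seen to move in opposite directions, they are given as a description, with no test.

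The muscle markers moved with the receptor genes and by more. All 15 muscle markers in the table were called higher in IMA than in IMPA, and their summed FPKM went from 3268 ± 215 to 13062 ± 352, a 4.00-fold rise, beside the 1.75-fold rise of the subunit sum. Set against 1000 FPKM of muscle markers, the subunits amounted to 26.4 ± 1.02 FPKM in IMPA and 11.6 ± 1.02 FPKM in IMA (n = 5 each), without overlap. The direction of the subunit change was therefore upward on the FPKM scale and downward per unit of muscle marker mRNA. The part of the muscle markers in the changes of the 10 genes was not tested.

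**Figure D3:**
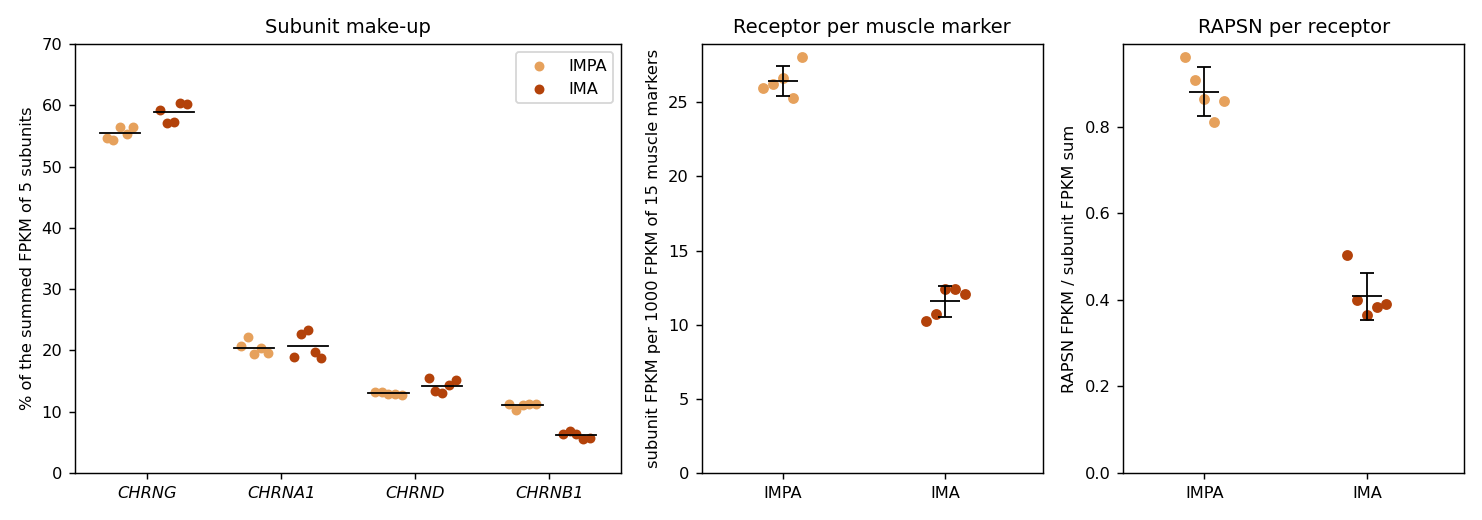
Left, each of 4 subunits as a percentage of the summed FPKM of the 5 subunits in the 10 intramuscular libraries. Middle, the subunit sum per 1000 FPKM of 15 muscle markers. Right, RAPSN divided by the subunit sum. Points are libraries and horizontal bars means (n = 5), with whiskers of 1 SD in the middle and right panels. The CHRNB1 share falls from 11.0% to 6.13%, and both ratios are lower in every IMA library than in every IMPA library.

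**Figure D4:**
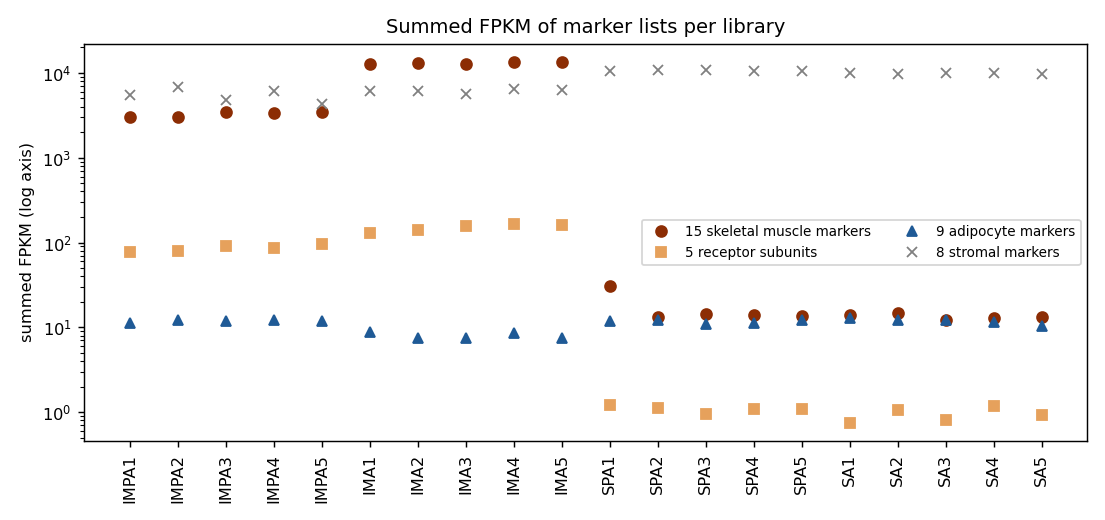
Summed FPKM of the 5 receptor subunits and of 3 lists of cell type markers in each of the 20 libraries, on a log axis. The subunit sum follows the muscle markers in separating the intramuscular from the subcutaneous libraries, and SPA replicate 1 has the highest muscle marker sum of the subcutaneous libraries at 30.6 FPKM.

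In the subcutaneous cells RAPSN was higher after induction and AGRN was lower. RAPSN was 0.713, 0.663, 0.681, 0.323 and 0.907 FPKM in SPA and 1.16, 1.31, 1.22, 1.32 and 2.19 FPKM in SA. All SA libraries exceeded all SPA libraries, a 2.19-fold higher mean at a low level (log2 difference 0.55, SE 0.114, adjusted p = 0.00152, limma). Without SPA replicate 1 and SA replicate 5, a pair that lost fewer reads in filtering, the difference was 0.47 (adjusted p = 0.00269, limma). Of the 15 muscle markers, 1 was called higher and 3 lower in SA, beside 26.1% higher and 26.0% lower of all genes tested. Many of these markers, among them CKM, MYL1, TTN and MYH8, were near 0 in SPA and SA. They entered the test only through their intramuscular values, and a change at this level was not detectable. The 4 proliferation markers had a summed FPKM of 25.5 to 31.2 in SPA and 114 to 129 in SA. The part of either list in the subcutaneous changes was not tested.

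AGRN was 1.18, 1.21, 1.16, 1.22 and 1.41 FPKM in SPA and 0.874, 1.07, 0.888, 0.947 and 1.25 FPKM in SA, and SA replicate 5 lay within the SPA range. Its log2 difference of -0.16 (SE 0.0568, adjusted p = 0.0354, limma) was close to that in the intramuscular cells. The call did not hold when SPA replicate 2, 4 or 5 or SA replicate 1, 3 or 4 was left out, with adjusted p values from 0.0543 to 0.0877 (limma).

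LRP4 was 18.0, 23.3, 23.2, 26.8 and 23.9 FPKM in SPA and 24.3, 14.3, 13.6, 22.7 and 23.8 FPKM in SA. Replicates 2 and 3 of SA stood well below the other three, which lay within the SPA range. The log2 difference of -0.24 had a 95% confidence interval from -0.61 to 0.12 (adjusted p = 0.238, limma).

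CHRNB1, which was present in all subcutaneous libraries, ranged from 0.632 to 0.920 FPKM in SPA and from 0.595 to 0.921 FPKM in SA (log2 difference -0.05, adjusted p = 0.537, limma). CHRNA1, CHRND, CHRNG, MUSK and DOK7 were listed at 0 in many of these libraries and gave log2 differences between -0.05 and 0.01. CHRND was above 0 in 1 SPA and 1 SA library, at 0.0163 and 0.0367 FPKM. These genes entered the test only through their intramuscular values, and a change at this level was not detectable. RAPSN and AGRN were thus the genes called, 1 higher and 1 lower, and since 5 of the 9 were near 0 no share was formed to set against the 52.1% of all genes tested that were called, 26.1% higher and 26.0% lower. The groups of RAPSN did not overlap, as was so for 38.8% of all genes tested, 19.8% higher and 19.0% lower.

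CHRNE had its higher values here, 0.365, 0.299, 0.248, 0.169 and 0.283 FPKM in SPA and 0.0512, 0.375, 0.175, 0.217 and 0.147 FPKM in SA. The stage difference did not pass an exact permutation test (adjusted p = 0.238). SPA replicate 1 had the highest CHRNA1 (0.0605 FPKM), CHRND (0.0163 FPKM) and CHRNG (0.139 FPKM) of its group, together with the highest sum of muscle markers. The part of that library's muscle marker mRNA in these traces was not tested.

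The response to induction was compared between the depots as an interaction, for which 55.3% of all genes tested were called, 20.7% above 0 and 34.6% below 0. Of RAPSN, AGRN and LRP4, which averaged 1 FPKM or more in both depots, RAPSN was called. It moved in opposite directions, down in intramuscular and up in subcutaneous cells, and its interaction was -0.86 (SE 0.135, adjusted p = 1.56e-05, limma). The change in intramuscular minus the change in subcutaneous cells was 0.80 for CHRNA1, 0.87 for CHRND, 0.90 for CHRNG and 0.38 for MUSK on the log2(FPKM + 1) scale (adjusted p from 2.90e-08 to 0.000582, limma). The interaction of DOK7 was -0.36 (adjusted p = 0.00541, limma), and this call was lost with a pseudocount of 0.1 (adjusted p = 0.133). For these 5 genes the subcutaneous values were at or near 0, so the interaction restates the intramuscular change and is not counted as a difference of its own.

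AGRN fell by similar amounts in both depots, with an interaction of -0.02 and a 95% confidence interval from -0.18 to 0.15 (adjusted p = 0.878, limma). The interaction of LRP4 was -0.40 with an interval from -0.79 to -0.01 (adjusted p = 0.0727, limma). It passed the threshold without SPA replicate 4 (adjusted p = 0.0484), without SA replicate 2 (adjusted p = 0.0192) or without SA replicate 3 (adjusted p = 0.0117, limma). For CHRNB1 the interaction was 0.01 (95% confidence interval from -0.20 to 0.21, adjusted p = 0.966, limma).

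Between the depots at the same stage, CHRNA1, CHRNB1, CHRND, CHRNG, MUSK, DOK7 and RAPSN had higher mRNA levels in the intramuscular cells and CHRNE and LRP4 did not. CHRNB1 was 12.4-fold higher in IMPA than in SPA and 12.9-fold higher in IMA than in SA. RAPSN was 116-fold higher in IMPA than in SPA and 42.4-fold higher in IMA than in SA. For CHRNA1, CHRND, CHRNG, MUSK and DOK7 no fold was computed, since the subcutaneous groups were at or near 0. These 5 genes and CHRNB1 passed the filter on low values through their intramuscular libraries alone, so their calls follow from the filter and are not counted as a result. RAPSN averaged more than 1 FPKM over the pooled subcutaneous libraries as well, with means of 0.657 FPKM in SPA and 1.44 FPKM in SA. Its log2 difference was 5.54 between IMPA and SPA and 4.68 between IMA and SA (adjusted p = 2.55e-14 and 5.89e-15, limma). Because its SPA mean lay under 1 FPKM, the RAPSN call between IMPA and SPA is not counted as a result either. For both comparisons the share of all genes tested that was called was high, 75.1% between IMPA and SPA (42.3% higher and 32.9% lower in IMPA) and 72.4% between IMA and SA (29.0% higher and 43.4% lower in IMA).

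AGRN and LRP4 passed the filter in both depots. AGRN was 1.74-fold higher in IMPA than in SPA (log2 difference 0.49, SE 0.0521, adjusted p = 2.24e-06, limma) and 1.78-fold higher in IMA than in SA (log2 difference 0.48, SE 0.0645, adjusted p = 1.26e-05, limma). LRP4 ran in the opposite direction, with a mean in IMPA of 0.610 of that in SPA (log2 difference -0.67, SE 0.0832, adjusted p = 1.08e-05, limma) and in IMA of 0.438 of that in SA (log2 difference -1.07, SE 0.146, adjusted p = 1.40e-05, limma). For both genes no intramuscular library overlapped a subcutaneous library of the same stage. Groups without overlap were seen in 63.4% of all genes tested between IMPA and SPA, 35.9% higher and 27.5% lower, and in 58.6% between IMA and SA, 24.0% higher and 34.7% lower.

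CHRNE, which stands outside these fits, was lower in IMPA than in SPA, with means of 0.0563 and 0.273 FPKM and no overlap (exact permutation test, p = 0.00794, adjusted p = 0.0317). Between IMA and SA it did not pass (exact permutation test, adjusted p = 0.238). CHRNE was at trace level in every library, with an unknown number of fragments behind each value, so its depot difference rests on traces. CHRNG as a percentage of CHRNG and CHRNE was 27.5%, 9.87%, 0%, 0% and 0% in the SPA libraries and 35.9%, 8.03%, 17.3%, 0% and 0% in the SA libraries. It was lower by 92.4 percentage points in SPA than in IMPA and by 87.6 percentage points in SA than in IMA (exact permutation test, adjusted p = 0.0159 each). The first call was lost with the most abundant transcript of each gene (68.1 points, adjusted p = 0.190, exact test), and both were lost with the replicate number as a block (adjusted p = 0.125, exact sign-flip test, the smallest unadjusted p of which is 0.0625). Both genes were at most 0.375 FPKM in subcutaneous cells, so these percentages rest on traces. With CHRNG near 0 in the subcutaneous and high in the intramuscular cells, the depot difference of this share follows from its level. It is not counted as a result of its own.

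The transcripts of a gene could be followed separately where the annotation had more than one. CHRNG had 3, and all 3 had groups without overlap as a share of the gene's FPKM. Transcript XM_018067220.1 went from 66.6% ± 1.78 in IMPA to 72.4% ± 1.22 in IMA, XM_018067227.1 from 9.54% ± 1.59 to 13.1% ± 1.12, and XM_018067232.1 from 23.8% ± 2.74 to 14.6% ± 1.26 (n = 5 each, exact permutation test, adjusted p = 0.0238 for each over 9 transcripts). The first 2 transcripts thus gained share as CHRNG rose, and the last lost it.

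For CHRND, XM_018058156.1 had 39.2% in IMPA and 48.4% in IMA and XM_018058146.1 had 60.4% and 51.6% (exact permutation test, adjusted p = 0.0714 for each). The 4 transcripts of CHRNB1 varied widely between libraries of a group, with SDs from 4.43 to 21.8 percentage points, and did not pass the test (exact permutation test, adjusted p from 0.439 to 0.595). LRP4 was made up mainly of XM_018059128.1 in all groups. Its transcript XM_018059130.1 was 0.499 to 0.645 FPKM in IMPA and 0.298 to 0.488 FPKM in IMA and was listed at 0 in every subcutaneous library. Of the 7 transcripts of CHRNE, 3 were listed at 0 in all 20 libraries.

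AGRN had 5 transcripts, and in 19 of the 20 libraries a single one held over 90% of the gene's FPKM. That transcript was not the same in every library. XM_018060561.1 led in all 5 IMPA, 4 IMA, 3 SPA and 1 SA libraries, XM_018060565.1 in 1 IMA, 2 SPA and 3 SA libraries, and XM_018060560.1 in 1 SA library. Because the leading transcript changed between libraries of a single group, no stage difference was read from the AGRN transcripts and the sum over them was used.

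**Figure D5:**
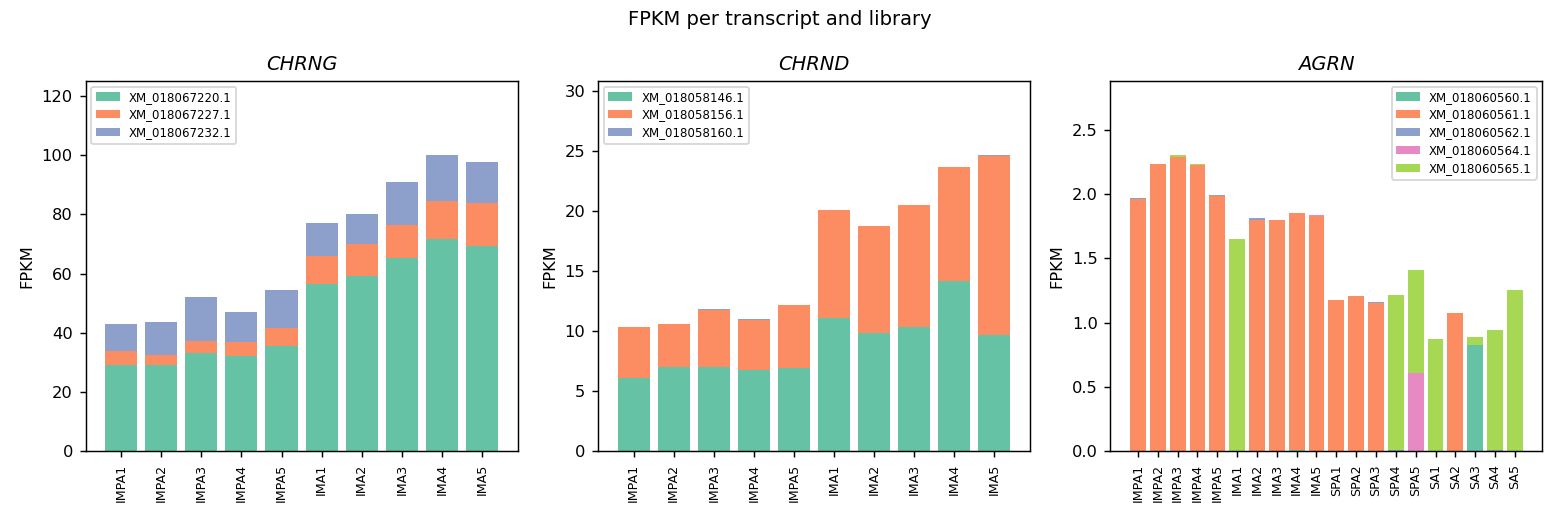
FPKM per library, stacked by transcript, for CHRNG and CHRND in the 10 intramuscular libraries and for AGRN in all 20. Every bar starts at 0 and its height is the gene's FPKM. The blue part of CHRNG, XM_018067232.1, holds a smaller share of each IMA bar than of each IMPA bar, and most AGRN bars have a single colour that changes between libraries.

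The genomic order in RefSeq's ARS1.2 annotation places CHRND and CHRNG next to each other on chromosome 2, with no gene between them. CHRNA1 lies on the same chromosome, 616 genes from CHRND. LRP4 and RAPSN lie on chromosome 15 with 12 genes between them, and CHRNB1 and CHRNE on chromosome 19 with 54 between them. The neighbours CHRND and CHRNG were 1.92- and 1.86-fold higher in IMA than in IMPA, whereas CHRNB1 and CHRNE had levels of 9.54 and 0.0563 FPKM in IMPA.

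For each of the 9 genes at or above 1 FPKM, the genes with the most similar profile over the 20 libraries were found by the root mean square difference of log2(FPKM + 1) around each gene's mean, among 11431 others. This is a description, and the distance is set mainly by the 4 group means. The profile nearest to CHRNG was that of HES6, a Hes family factor expressed in myogenic cells (difference 0.168), followed by the muscle nicotinamide riboside kinase NMRK2 (0.205). UNC45B, a myosin chaperone, was nearest to CHRND (0.0807), with means of 10.8, 19.7, 0.00373 and 0.00117 FPKM in IMPA, IMA, SPA and SA, followed by LOC108633926 (0.105). CHRNA1 was closest to the cadherin CDH1 (0.114) and the integrin subunit ITGB6 (0.148).

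MUSK was closest to JPH1, a junctophilin of the triad (0.138), and to LOC102180704 (0.142), and DOK7 to NPNT (0.139) and CDK5R1 (0.141). RAPSN was closest to IGFBP2 (0.253) and to ITGA4 (0.255). CHRNB1 was nearest to LZTS1 (0.113) and EPB41L4A (0.114). The genes nearest to AGRN, ANKS1A (0.0900) and USP12 (0.0905), and to LRP4, HDAC7 (0.161) and GRN (0.180), were expressed in all 4 groups.

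Other acetylcholine receptor genes were nearly absent. Of 10 further nicotinic subunits in the table only CHRNA5 reached 1 FPKM, and none of the 5 muscarinic receptors did. CHRNA5 was 1.91 ± 0.307 FPKM in IMPA, 2.92 ± 0.276 in IMA, 3.22 ± 0.373 in SPA and 4.16 ± 0.329 in SA (n = 5 each). It rose in both depots (log2 difference 0.43, adjusted p = 0.000494, and 0.29, adjusted p = 0.00378, limma) and was lower in intramuscular than in subcutaneous cells at both stages (log2 difference -0.54, adjusted p = 5.80e-05, and -0.40, adjusted p = 9.12e-05, limma).

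Of 7 tested genes of the synaptic basal lamina and the cholinesterases, 2 were higher and 4 lower in IMA than in IMPA, and 3 were higher and 3 lower in SA than in SPA. Over all genes tested, 60.1% were called in the first comparison, 19.9% as higher and 40.2% as lower, and 52.1% in the second, 26.1% as higher and 26.0% as lower, and the counts of this and the following lists are to be read beside these shares. HSPG2, which encodes perlecan, fell from 10.7 ± 2.84 to 4.46 ± 0.528 FPKM in intramuscular cells (n = 5 each, adjusted p = 2.50e-05, limma). ACHE, the enzyme that breaks down acetylcholine at the synapse, was 6.14 ± 0.903 FPKM in SPA and 1.06 ± 0.139 FPKM in SA (n = 5 each, log2 difference -1.78, adjusted p = 5.66e-09, limma), and rose in intramuscular cells from 1.50 ± 0.223 to 2.26 ± 0.351 FPKM (n = 5 each, log2 difference 0.38, adjusted p = 0.00206, limma). The interaction of ACHE was 2.16 (adjusted p = 4.54e-12, limma). BCHE, the broader cholinesterase, was 9.96 ± 1.07 FPKM in IMPA and 2.11 ± 0.159 in SPA (n = 5 each, adjusted p = 8.14e-11, limma). LAMA4, a laminin chain with the highest mean of the list, was 119 ± 28.1 FPKM in IMPA and 119 ± 1.76 in IMA (n = 5 each, adjusted p = 0.853, limma).

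Of 10 genes of the utrophin complex and the cytoskeleton beneath the synapse, 3 were higher and 4 lower in IMA than in IMPA, and 2 were higher and 1 lower in SA than in SPA, beside 60.1% and 52.1% of all genes called. DTNA, encoding alpha-dystrobrevin, went from 3.70 ± 0.401 to 8.99 ± 1.14 FPKM in intramuscular cells (n = 5 each, log2 difference 1.09, adjusted p = 5.81e-07, limma) and averaged 0.407 and 0.418 FPKM in SPA and SA. SNTB1, a syntrophin, rose from 4.37 ± 0.493 to 7.17 ± 0.463 FPKM (n = 5 each, adjusted p = 1.53e-05, limma). CTTN, cortactin, had 76.8 FPKM in both IMPA and IMA. SYNE1, which anchors nuclei to the cytoskeleton, rose from 11.5 ± 0.438 to 15.8 ± 0.128 FPKM in the subcutaneous cells (n = 5 each, adjusted p = 7.48e-07, limma).

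Of 18 genes that act in or on the MuSK pathway, 3 were higher and 8 lower in IMA than in IMPA, and none was higher and 9 were lower in SA than in SPA. With both directions pooled, the shares called were near those of all genes tested, 60.1% and 52.1%. Between SA and SPA every called gene of the list was lower, whereas all genes tested split into 26.1% higher and 26.0% lower. CRKL, an adaptor recruited by Dok-7, fell from 27.6 ± 0.919 to 16.4 ± 0.865 FPKM in intramuscular cells (n = 5 each, adjusted p = 6.86e-08, limma) and from 30.7 ± 0.580 to 23.9 ± 0.710 FPKM in subcutaneous cells (n = 5 each, adjusted p = 1.35e-06, limma). PDZRN3, a ubiquitin ligase of MuSK, went from 34.5 ± 0.772 to 22.7 ± 0.538 FPKM in subcutaneous cells (n = 5 each, adjusted p = 1.04e-08, limma), and was 21.3 and 20.5 FPKM in IMPA and IMA. HSP90B1, a chaperone and the most abundant gene of the list, lay between group means of 273 and 394 FPKM. FYN, a Src-family kinase, was 44.8 ± 12.3 FPKM in IMPA and 116 ± 2.92 in SPA (n = 5 each, adjusted p = 4.45e-06, limma).

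Of 5 tested genes of neuregulin signalling, 2 were higher and 2 lower in IMA than in IMPA. ERBB3, a neuregulin receptor, was 7.30 ± 1.14 FPKM in IMPA and 10.2 ± 1.11 in IMA (n = 5 each, log2 difference 0.44, adjusted p = 0.00165, limma) and did not exceed 0.0445 FPKM in any subcutaneous library. ETV5, an Ets factor of subsynaptic nuclei, rose in both depots (log2 difference 0.24, adjusted p = 0.0154, and 0.40, adjusted p = 0.000114, limma), and GABPA, which binds the N-box, stayed between group means of 18.7 and 19.9 FPKM. Of 5 glycosylation genes mutated in congenital myasthenia, 2 were higher and 2 lower in IMA than in IMPA. GFPT1, the most abundant of them, rose from 42.6 ± 0.991 to 54.0 ± 3.01 FPKM (n = 5 each, adjusted p = 3.03e-05, limma). Others of the list, DPAGT1, ALG2 and ALG14, lay between group means of 3.43 and 10.5 FPKM in all 4 groups.

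A list of myogenic and denervation-responsive genes, mainly transcription regulators but also a sodium channel and an adhesion molecule, had 8 of 16 tested genes higher and 2 lower in IMA than in IMPA, and 3 higher and 5 lower in SA than in SPA, beside 60.1% and 52.1% of all genes called. MYOG, a myogenic factor that binds E-boxes of the subunit genes, was abundant at both intramuscular stages. It was 649 ± 66.9 FPKM in IMPA and 736 ± 35.0 FPKM in IMA (n = 5 each, log2 difference 0.18, adjusted p = 0.0269, limma) and did not exceed 0.619 FPKM in subcutaneous cells. MYOD1 went the other way, from 43.2 ± 1.84 FPKM in IMPA to 26.1 ± 2.51 FPKM in IMA (n = 5 each). MYF6 went from 4.00 ± 0.318 to 20.3 ± 1.66 FPKM (n = 5 each), and for both genes the groups did not overlap. MEF2C, a partner of the myogenic factors, went from 13.0 ± 0.846 to 74.8 ± 4.39 FPKM (n = 5 each, log2 difference 2.43, adjusted p = 1.28e-11, limma). RUNX1, which rises in denervated muscle, was 23.4 ± 2.89 FPKM in IMPA and 21.5 ± 1.45 in IMA (n = 5 each, adjusted p = 0.225, limma), and fell from 25.1 ± 1.85 to 13.4 ± 1.79 FPKM in subcutaneous cells (n = 5 each, adjusted p = 3.52e-06, limma).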

How the data were processed

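The authors aligned stranded paired-end reads to goat assembly ARS1 with HISAT2 2.0.4, assembled transcripts with Scripture and Cufflinks and calculated FPKM per transcript with StringTie 1.3.1 and Ballgown, with Cuffdiff also named, per the labels and the study's methods. FPKM was used as deposited, mainly from the mRNA table, and the lncRNA tables served only for library sums. Reads per library are listed in the study, but no counts per gene or transcript were given, so intervals for counting error were not computed.

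FPKM of the mRNA table was summed per gene symbol, and 11432 of 20587 genes, those averaging 1 FPKM or more across the 20 libraries, were tested. Differences of log2(FPKM + 1) were tested two-sided with limma 3.58.1 (moderated variances with a trend, R 4.3.3) in separate fits of 10 libraries, and the interaction over 20. Benjamini-Hochberg adjustment covered all genes tested, and an adjusted p under 0.05 was called. On this scale the change of a low gene is understated. Single values were compared with exact two-sided permutation tests in Python 3.11.15, whose smallest p is 0.00794. Whether the replicate numbers pair the samples by goat was not stated, and the tests had no block.

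The 10 genes and all lists were chosen with earlier results of these data known. Genes named from other lists were mainly those with the largest called change in a comparison or the highest mean. MYOD1 and MYF6 were named after their values had been seen. The alternatives were other filters, pseudocounts, scalings and variance models, the most abundant transcript, a replicate block and each library left out. No sequence or ARS1 coordinate is printed, since neither was used here. The result of 1 list of cell type markers is not reported here.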

Additional observations from a re-analysis of the deposited data

Results flagged for a closer look

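In 8 of 40 groups of 5 libraries 1 library stood apart from the other 4, by a gap divided by the group's range above 0.71. Chance gives such a gap in about 5% of groups, and groups in which 1 library is above 0 always give 1. In subcutaneous cells these were CHRND in SPA replicate 1 (gap 1, 0.0163 FPKM) and in SA replicate 4 (gap 1, 0.0367 FPKM), CHRNG in SPA replicate 1 (gap 0.764, 0.139 FPKM), DOK7 in SPA replicate 2 (gap 1, 0.0553 FPKM) and in SA replicate 3 (gap 1, 0.108 FPKM), AGRN in SPA replicate 5 (gap 0.784, 1.41 FPKM) and RAPSN in SA replicate 5 (gap 0.852, 2.19 FPKM). In intramuscular cells it was AGRN in IMA replicate 1 (gap 0.727, 1.65 FPKM), which was the lowest of its group and the IMA library in which another AGRN transcript led. Without SA replicate 5 the RAPSN difference between SA and SPA was 0.45 on the log2 scale (adjusted p = 0.00133, limma).

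The change with induction differed between the depots, by the limma interaction on the log2 scale, for CHRNA1 (0.80), CHRND (0.87), CHRNG (0.90), MUSK (0.38), DOK7 (-0.36) and RAPSN (-0.86). For the first 5 the subcutaneous values were at or near 0, so the value restates the intramuscular change, and DOK7 lost its call with a pseudocount of 0.1 (adjusted p = 0.133, limma). RAPSN was called in both depots, in opposite directions.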

How the results depend on the processing

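Between IMA and IMPA, 7 to 9 genes were called under every alternative, and 8 with any library left out. Between SA and SPA the count of 2 became 1 with no filter on low values, with the most abundant transcript and with a mean of at least 1 FPKM in the 10 libraries of the fit (an alternative added after the data were seen), and ranged from 1 to 2 when single libraries were left out, AGRN being the gene lost. The interaction count was 5 with a pseudocount of 0.1, where DOK7 was lost (-0.46, adjusted p = 0.133, limma), and 6 to 7 with single libraries left out. The count stayed at 9 between IMA and SA and reached 10 between IMPA and SPA with lower filters, which let CHRNE in. No scaling changed a call of the 9 genes or the direction of a called one. The replicate numbers share no stated goat, and same-numbered libraries correlated between -0.242 and 0.122 in their deviations; with the number as a replicate block the counts stayed at 8, 2, 9, 9 and 6. In the order IMA versus IMPA, SA versus SPA, IMPA versus SPA and IMA versus SA, leaving out single libraries gave differences of the CHRNG share of -0.0368 to 0.00262, -1.14 to 9.79, 90.5 to 97.4 and 84.5 to 93.5 percentage points. The first became 0.0785 with 0.1 FPKM added to both genes, and the most abundant transcript gave -18.0 for the second and 68.1 (adjusted p = 0.190, exact test) for the third. With the replicate block the last pair stayed at 92.4 and 87.6 points with an adjusted p of 0.125 in an exact sign-flip test, whose smallest unadjusted p is 0.0625. The subunit sum per 1000 FPKM of muscle markers, an added alternative, gave a ratio of IMA to IMPA of 0.438 in place of 1.75. Apart from the block and the ratio to muscle markers, whose construction shows it, the cause of these shifts was not tested. Without counts, values near 0 cannot be told apart from values below the depth of a library.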
